A study of Homo sapiens with 8 samples.

Results

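The DNA damage checkpoint kinases and mediators were examined as a set of 10 genes, taken by name from the 78932 genes in the count tables. They comprise the apical kinases ATM and ATR with the ATR partner ATRIP, the clamp subunit RAD9A and the ATR activator TOPBP1, the chromatin mediators MDC1 and TP53BP1, and the effector kinases CHEK1, CHEK2 and WEE1. The cells were of the human colorectal cancer line HCT116, with NUDT21 fused to a degradation tag (dTAG-NUDT21). NUDT21 is the RNA-binding subunit of CFIm, a complex that marks poly(A) sites on new transcripts. One group of 4 libraries came from cells given DMSO, the solvent, and the other group of 4 from cells given dTAGV1, a compound that makes the cell destroy the tagged protein. Both groups also received JTE-607, an inhibitor of the pre-mRNA cleavage nuclease CPSF73, so no library shows the effect of dTAGV1 alone. The labels give no dose, time or clone, and they do not say whether replicates were separate cultures, so p-values measure the spread between these libraries.

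ATM responds to broken DNA ends. ATR responds to stretches of exposed DNA single strands coated by the RPA complex, which it reaches through ATRIP. The clamp that holds RAD9A, RAD1 and HUS1 brings in TOPBP1, which switches ATR on. MDC1 and TP53BP1 gather on chromatin around breaks. ATR activates CHEK1 and ATM activates CHEK2, and both effectors restrain the CDC25 phosphatases, while WEE1 places the inhibitory phosphate on cyclin-dependent kinases. In colorectal cancer cells as in other dividing cells, this network delays the cell cycle when replication stalls or DNA breaks.

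RefSeq promoter windows (GRCh38.p14, 250 bases before to 50 after the annotated start, in the direction of the gene) were at hand for 9 of the 10 genes, and WEE1 was the other. The windows of ATM, ATR, CHEK1, CHEK2 and TOPBP1 are shown as examples of genes that rose, fell or were not called, as described further on. The first listed window is given for each, and capitals mark matches of the motifs searched.
ATM chr11:108222817-108223116 (plus strand): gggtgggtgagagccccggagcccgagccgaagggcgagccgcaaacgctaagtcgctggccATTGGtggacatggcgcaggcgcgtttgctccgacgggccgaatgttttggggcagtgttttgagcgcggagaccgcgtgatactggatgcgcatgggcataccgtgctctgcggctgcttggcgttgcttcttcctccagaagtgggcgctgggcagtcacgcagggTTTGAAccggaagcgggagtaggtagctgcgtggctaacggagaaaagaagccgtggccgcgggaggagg
ATR chr3:142578684-142578983 (minus strand): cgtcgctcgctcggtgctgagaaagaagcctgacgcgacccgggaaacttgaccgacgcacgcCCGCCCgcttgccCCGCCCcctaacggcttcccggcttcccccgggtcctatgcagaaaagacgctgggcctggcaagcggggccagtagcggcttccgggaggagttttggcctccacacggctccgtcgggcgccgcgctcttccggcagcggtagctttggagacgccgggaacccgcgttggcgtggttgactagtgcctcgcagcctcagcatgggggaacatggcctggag
CHEK1 chr11:125625979-125626278 (plus strand): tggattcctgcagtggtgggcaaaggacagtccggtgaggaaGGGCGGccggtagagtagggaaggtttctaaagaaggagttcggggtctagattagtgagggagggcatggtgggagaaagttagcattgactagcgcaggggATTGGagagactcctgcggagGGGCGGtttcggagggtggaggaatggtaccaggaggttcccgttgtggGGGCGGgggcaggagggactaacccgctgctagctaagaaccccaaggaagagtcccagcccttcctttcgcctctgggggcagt
CHEK2 chr22:28741771-28742070 (minus strand): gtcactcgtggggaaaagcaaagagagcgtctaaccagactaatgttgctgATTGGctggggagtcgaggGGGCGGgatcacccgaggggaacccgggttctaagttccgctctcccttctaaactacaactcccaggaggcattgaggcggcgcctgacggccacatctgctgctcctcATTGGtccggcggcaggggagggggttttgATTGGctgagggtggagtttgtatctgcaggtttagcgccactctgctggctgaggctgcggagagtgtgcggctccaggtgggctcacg
TOPBP1 chr3:133661892-133662191 (minus strand): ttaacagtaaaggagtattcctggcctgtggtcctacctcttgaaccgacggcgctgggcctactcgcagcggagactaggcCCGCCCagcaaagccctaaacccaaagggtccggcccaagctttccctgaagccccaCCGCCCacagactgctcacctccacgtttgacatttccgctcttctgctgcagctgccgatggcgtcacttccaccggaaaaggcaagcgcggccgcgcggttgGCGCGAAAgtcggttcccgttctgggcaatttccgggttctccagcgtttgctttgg

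Motifs were searched on both strands, and no match in the printed windows overlapped another. The E2F motif (TTTCCCGC, TTTGGCGC, TTTCGCGC or TTTGCCGC) was found in TOPBP1 alone among the 9 genes, as GCGCGAAA at 7 bases before the start, and in 3.31% of all 35116 promoter windows. The TTTGAA or TTCGAA motif, known from promoters of cell cycle genes, was present in the printed window of ATM and in 16.4% of all windows. CCAAT or its complement ATTGG was present in the windows of ATM, CHEK1 and CHEK2 and in 34.6% of all windows, and the ATR window had none. The Sp1 motif GGGCGG or its complement CCGCCC, found in 45.0% of all windows, was present in ATR, CHEK1, CHEK2 and TOPBP1. Among genes whose windows are not printed, ATRIP, RAD9A, MDC1 and TP53BP1 each had CCAAT and Sp1 matches, and MDC1 also had TTTGAA. A match describes these letters only, and the part of these motifs in the changes was not tested.

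Between 3447842 and 4291256 sense reads per library fell in genes. Reads that matched no gene in sense orientation made up 30.1% to 33.7% of uniquely mapped reads in the DMSO libraries and 35.9% to 37.4% in the dTAGV1 libraries, and the part of this difference in the results was not tested. NUDT21 itself had 104, 139, 131 and 129 counts in the DMSO libraries (replicates 1 to 4) and 34, 29, 15 and 43 in the dTAGV1 libraries (replicates 1 to 4), and the tag is on the protein, whose level is unknown here. Of 8 markers of colorectal epithelium, EPCAM, CDH1, KRT8, KRT18 and CDX2 were well covered, CDX1 had no counts, and VIL1 and LGALS4 had at most 3. The summed level of these 8 markers was 884 to 1017 CPM (counts scaled to 1000000 per library) with DMSO and 750 to 854 CPM with dTAGV1. By edgeR at an adjusted p under 0.05, EPCAM was higher with dTAGV1 (log2 fold change 0.28) and KRT18 lower (-0.60). CDH1, KRT8 and CDX2 did not reach that threshold. Of 6 markers of other cells, COL1A1 had 37 to 73 counts per library, COL3A1 and ALB had none, and PTPRC, CD68 and PECAM1 had at most 7. Their summed level was 15.6 to 20.9 CPM with DMSO and 11.7 to 16.9 CPM with dTAGV1. The part of these markers in the results was not tested.

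ATM and RAD9A RNA rose with dTAGV1, and ATR, ATRIP, CHEK1 and CHEK2 fell. TOPBP1, TP53BP1 and WEE1 were not called, and MDC1 had too few counts to test. The changes were moderate, from 1.25-fold for ATR to 1.75-fold for ATRIP. Of 9 tested genes, 2 were thus higher and 4 lower (adjusted p under 0.05 in the quasi-likelihood test of edgeR, with Benjamini-Hochberg over all tested genes), or 66.7%, where 57.9% of all 12618 tested genes were called, 29.4% higher and 28.5% lower. The share of called genes in the set was therefore near that of all genes. Its median log2 fold change was -0.13, against 0.01 for all tested genes. For 5 of the 9 the CPM ranges of the groups were apart, against 50.9% of all tested genes. In a bulk sample, fewer cells of a type and less RNA per cell cannot be told apart.

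**Figure D1:**
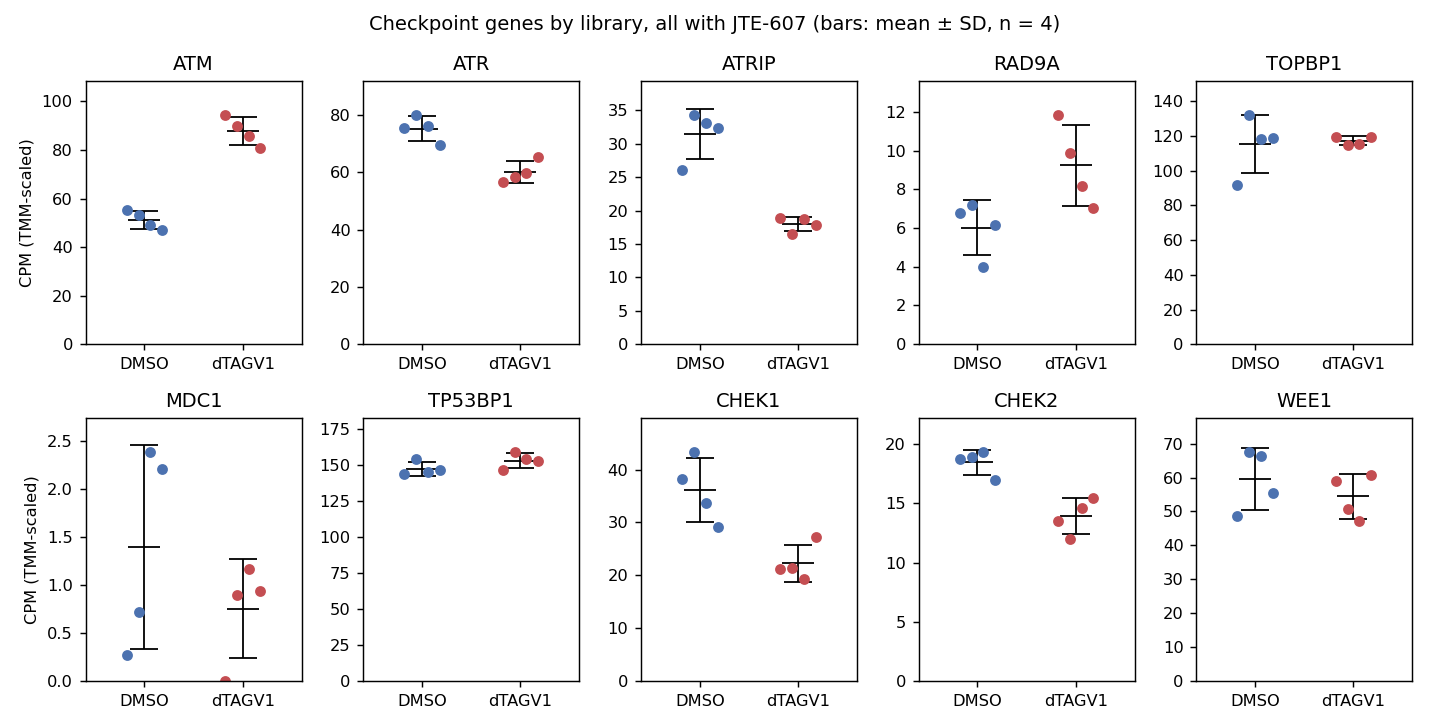
CPM of the 10 checkpoint genes in each library (points), with mean and SD (bars, n = 4) for DMSO and dTAGV1, all with JTE-607; each panel has its own axis from 0. The groups are apart for ATM, ATR, ATRIP, CHEK1 and CHEK2, and overlap for RAD9A, TOPBP1, MDC1, TP53BP1 and WEE1.

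**Figure D2:**
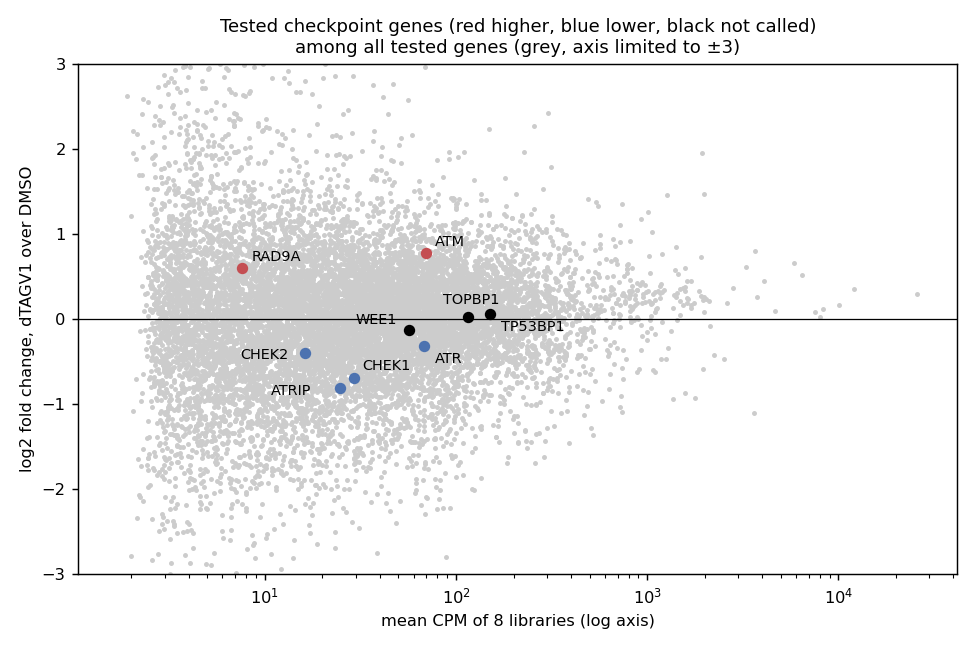
Log2 fold change of dTAGV1 over DMSO against mean CPM over the 8 libraries (log axis), with the axis limited to ±3, for all tested genes in grey and the 9 tested checkpoint genes in colour (red higher, blue lower, black not called). The 9 genes lie inside the range of all genes, between -0.81 and 0.77.

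ATM (ENSG00000149311; GRCh38 chromosome 11, 108222484 to 108369102, plus strand, protein-coding) had the largest rise of the set. Its expression was 55.3, 53.1, 49.3 and 47.1 CPM in the DMSO libraries (replicates 1 to 4) and 94.3, 90.0, 85.7 and 81.0 CPM in the dTAGV1 libraries (replicates 1 to 4). Every dTAGV1 library was above every DMSO library by a wide margin. The mean went from 51.2 ± 3.71 to 87.7 ± 5.69 CPM (SD, n = 4 each). As log2 fold change ± SE this was 0.77 ± 0.09 (adjusted p = 1.09e-07, edgeR with Benjamini-Hochberg), or 1.71-fold. ATM stood at percentile 88.4 of the log2 fold changes of all tested genes.

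ATR (ENSG00000175054; chromosome 3, 142449235 to 142578826, minus strand, protein-coding), the kinase for exposed single strands, went the other way. It had 75.4, 80.0, 76.3 and 69.5 CPM in the DMSO libraries (replicates 1 to 4) and 56.6, 58.5, 59.9 and 65.5 CPM in the dTAGV1 libraries (replicates 1 to 4). The groups did not overlap, but the highest dTAGV1 library lay close to the lowest DMSO library. ATR fell from 75.3 ± 4.35 to 60.1 ± 3.85 CPM (SD, n = 4 each), or -0.32 ± 0.09 as log2 fold change ± SE (adjusted p = 0.00383, edgeR with Benjamini-Hochberg).

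ATRIP (ENSG00000164053; chromosome 3, 48446710 to 48467645, plus strand, protein-coding), which carries ATR to RPA-coated DNA, fell most in the set. Its values were 26.0, 34.2, 33.1 and 32.4 CPM in the DMSO libraries (replicates 1 to 4) and 18.9, 16.5, 18.7 and 17.8 CPM in the dTAGV1 libraries (replicates 1 to 4). The 4 dTAGV1 libraries were close together, and all were below the lowest DMSO library. The mean fell from 31.4 ± 3.68 to 17.98 ± 1.09 CPM (SD, n = 4 each), or -0.81 ± 0.14 as log2 fold change ± SE (adjusted p = 1.49e-05, edgeR with Benjamini-Hochberg). ATRIP shares 1515 exonic bases, in its last exon, with TREX1 on the same strand in GENCODE 29. TREX1, a DNA exonuclease gene, had no counts in any library, and reads in the shared stretch may be given to neither gene. The ATRIP value is therefore uncertain.

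RAD9A (ENSG00000172613; chromosome 11, 67317871 to 67398410, plus strand, protein-coding), a subunit of the checkpoint clamp, had only 15 to 42 counts per library. It stood at 6.78, 7.18, 3.97 and 6.14 CPM in the DMSO libraries (replicates 1 to 4) and at 11.8, 9.90, 8.19 and 7.04 CPM in the dTAGV1 libraries (replicates 1 to 4). The lowest dTAGV1 library fell below the highest DMSO library. As log2 fold change ± SE this was 0.60 ± 0.24 (adjusted p = 0.0334, edgeR with Benjamini-Hochberg). This call was lost without DMSO replicate 3 (log2 fold change 0.45), DMSO replicate 4 (0.60), dTAGV1 replicate 1 (0.45) or dTAGV1 replicate 2 (0.55). It was also lost by DESeq2 (0.60, adjusted p = 0.0650), with library-size scaling in edgeR (0.53, adjusted p = 0.0624) and in edgeR without the filter on low counts (0.58, adjusted p = 0.0638).

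TOPBP1 (ENSG00000163781; chromosome 3, 133598175 to 133662380, minus strand, protein-coding), the activator of ATR, was not called. It had 92.0, 132, 118 and 119 CPM in the DMSO libraries (replicates 1 to 4) and 120, 115, 115 and 119 CPM in the dTAGV1 libraries (replicates 1 to 4). DMSO replicate 1 was the lowest library, and the dTAGV1 libraries lay within the range of the DMSO libraries. The log2 fold change was 0.02, with a 95% confidence interval from -0.16 to 0.21 (edgeR with Benjamini-Hochberg, adjusted p = 0.836), and its sign changed with the scaling.

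TP53BP1 (ENSG00000067369; chromosome 15, 43403061 to 43510728, minus strand, protein-coding), a mediator at DNA breaks, had 521 to 650 counts per library. Its values ran from 143 to 154 CPM with DMSO and from 147 to 159 CPM with dTAGV1, so the groups overlapped. The log2 fold change was 0.05, with a 95% confidence interval from -0.09 to 0.20 (edgeR with Benjamini-Hochberg, adjusted p = 0.536), and scaling by library size alone turned its sign. MDC1 (ENSG00000137337; chromosome 6, 30699807 to 30717889, minus strand, protein-coding), the mediator that binds phosphorylated H2AX, had 1, 3, 9 and 9 counts in the DMSO libraries (replicates 1 to 4) and 0, 3, 4 and 4 in the dTAGV1 libraries (replicates 1 to 4). It did not pass the filter on low counts, and a difference was not detectable at this depth. Without that filter the value was -0.88 ± 0.62 (log2 fold change ± SE; edgeR with Benjamini-Hochberg, adjusted p = 0.316).

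CHEK1 (ENSG00000149554; chromosome 11, 125625136 to 125676255, plus strand, protein-coding), the effector kinase downstream of ATR, fell. It had 38.2, 43.3, 33.6 and 29.2 CPM in the DMSO libraries (replicates 1 to 4) and 21.1, 21.3, 19.3 and 27.2 CPM in the dTAGV1 libraries (replicates 1 to 4). The DMSO libraries were widely spread, and dTAGV1 replicate 4 came near the lowest of them without overlap. The mean fell from 36.1 ± 6.07 to 22.2 ± 3.45 CPM (SD, n = 4 each), or -0.69 ± 0.14 as log2 fold change ± SE (adjusted p = 0.000195, edgeR with Benjamini-Hochberg). CHEK1 shares 80 exonic bases, outside its last exon, with STT3A on the same strand. STT3A, which encodes a subunit of the oligosaccharyl transferase, had 0.96 ± 0.08 as log2 fold change ± SE (adjusted p = 5.45e-10, edgeR with Benjamini-Hochberg), opposite in sign to CHEK1. The shared bases lie at the 3′ end of STT3A. Reads there may be given to neither gene, so the STT3A value is uncertain.

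CHEK2 (ENSG00000183765; chromosome 22, 28687743 to 28742422, minus strand, protein-coding), the effector kinase downstream of ATM, also fell, with 40 to 79 counts per library. Its values were 18.7, 18.9, 19.3 and 16.9 CPM in the DMSO libraries (replicates 1 to 4) and 13.5, 12.0, 14.6 and 15.5 CPM in the dTAGV1 libraries (replicates 1 to 4). All dTAGV1 libraries were below all DMSO libraries. As log2 fold change ± SE this was -0.40 ± 0.15 (adjusted p = 0.0277, edgeR with Benjamini-Hochberg). The call was lost without DMSO replicate 2 (log2 fold change -0.40), DMSO replicate 3 (-0.39) or dTAGV1 replicate 2 (-0.35). It was also lost by DESeq2 (-0.41, adjusted p = 0.0563) and in edgeR without the filter on low counts (-0.42, adjusted p = 0.0536). The pseudogenes CHEK2P2, CHEK2P3, CHEK2P4 and CHEK2P5 had no counts, and CHEK2 is given as uncertain because reads shared with them may be lost.

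WEE1 (ENSG00000166483; chromosome 11, 9573681 to 9593457, plus strand, protein-coding), the kinase that holds CDK1 inactive, was not called. It had 48.6, 67.5, 66.5 and 55.5 CPM in the DMSO libraries (replicates 1 to 4) and 59.1, 50.7, 47.1 and 60.8 CPM in the dTAGV1 libraries (replicates 1 to 4). The groups overlapped widely. The log2 fold change was -0.13, with a 95% confidence interval from -0.36 to 0.11 (edgeR with Benjamini-Hochberg, adjusted p = 0.352).

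The relative levels of members were compared in each library as the log2 ratio of their counts, which does not depend on library scaling. Over 6 pairs, 3 reached the smallest p that 4 libraries against 4 allow, and none passed after adjustment. With 3 pairs at that smallest p, the adjusted p could not fall below 0.0571, so these pairs could not pass at any separation. The ratio of ATR to ATM went from 0.56 ± 0.08 to -0.54 ± 0.18 (log2, SD, n = 4 each), a change of -1.10 or 2.14-fold (2-sided exact permutation test p = 0.0286; adjusted over the 6 pairs by Benjamini-Hochberg, p = 0.0571). The sign of this log2 ratio was positive in all 4 DMSO libraries and negative in all 4 dTAGV1 libraries. The ratio of WEE1 to CHEK1 differed by 0.57, from 0.72 ± 0.29 to 1.29 ± 0.14 (exact permutation test p = 0.0286, adjusted p = 0.0571). For ATR to ATRIP the difference was 0.47, from 1.26 ± 0.19 to 1.73 ± 0.13 (exact permutation test p = 0.0286, adjusted p = 0.0571). In these 3 ratios the groups were apart.

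The other pairs overlapped between the groups. CHEK1 to CHEK2 was 0.95 ± 0.20 with DMSO and 0.67 ± 0.20 with dTAGV1 (log2, SD, n = 4 each), a difference of -0.28 (exact permutation test p = 0.171, adjusted p = 0.206). A larger fall of CHEK1 than of CHEK2 was therefore not shown. TOPBP1 to RAD9A differed by -0.58 (exact permutation test p = 0.0857, adjusted p = 0.129). MDC1 to TP53BP1 differed by -0.88 (exact permutation test p = 0.486, adjusted p = 0.486), with few MDC1 counts.

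**Figure D3:**
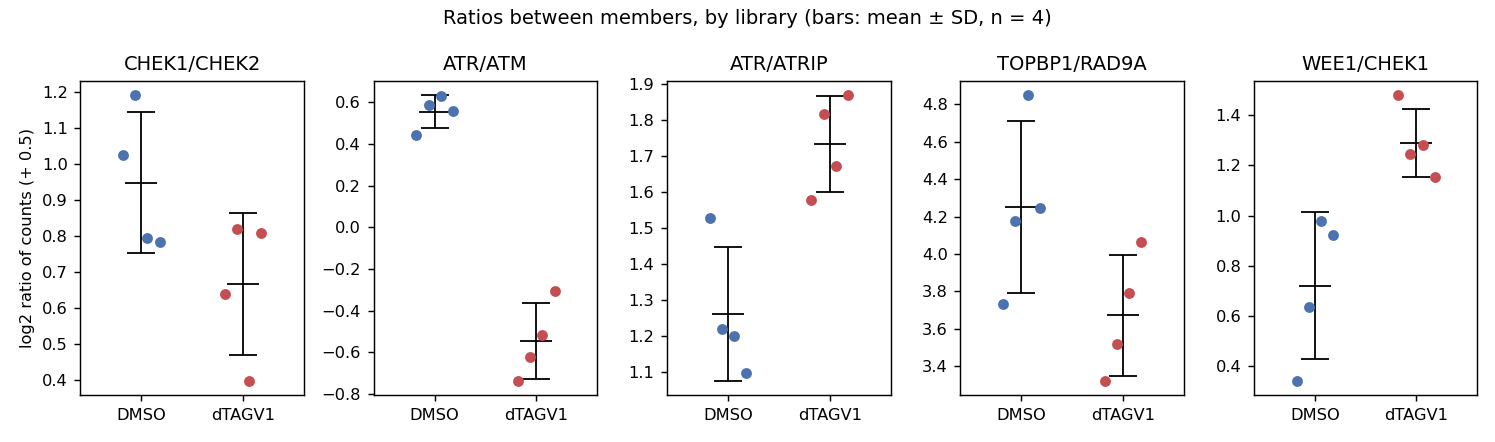
Log2 ratio of the counts of 2 members (counts + 0.5) in each library (points), with mean and SD (bars, n = 4); MDC1 to TP53BP1 is not drawn, and axes differ between panels and do not start at 0. ATR to ATM lies between 0.45 and 0.63 in the DMSO libraries and between -0.74 and -0.31 in the dTAGV1 libraries.

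Around ATR, most genes of a list of 11 fell, and 1 rose. The list holds the RPA subunits, the clamp and its loader, and the fork proteins that help ATR reach CHEK1. With dTAGV1, 9 were lower and 1 higher, and RAD17, the clamp loader subunit, was not called (log2 fold change 0.22). Of all tested genes, 28.5% were lower and 29.4% higher. The list was chosen with earlier results of these data known, so this contrast only describes the listed genes. The median log2 fold change of the list was -0.62, against 0.01 for all tested genes. CLSPN, the adaptor between ATR and CHEK1, fell from 160 ± 20.6 to 49.5 ± 11.6 CPM (SD, n = 4 each), or -1.68 ± 0.14 as log2 fold change ± SE (adjusted p = 3.74e-08, edgeR with Benjamini-Hochberg). RPA1, the large RPA subunit, fell from 127 ± 5.98 to 45.0 ± 5.57 CPM, with log2 fold change -1.49. HUS1, a partner of RAD9A in the clamp, rose from 30.1 ± 4.02 to 67.6 ± 6.04 CPM, or 1.17 ± 0.11 as log2 fold change ± SE (adjusted p = 2.64e-09, edgeR with Benjamini-Hochberg). RAD1, the remaining clamp subunit, had a log2 fold change of -0.53, so HUS1 and RAD9A were called higher and RAD1 lower. The RAD9A call rested on 15 to 42 counts per library and was lost in 7 of 16 alternatives.

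On the ATM side, 2 of 10 genes were higher, 3 lower and 5 not called, with a median log2 fold change of -0.15. Its called share, 5 of 10, was below the 57.9% of all tested genes, and nothing about the list is read from it. The count ran from 4 to 6 in the alternatives, and was 4 by DESeq2, limma-voom and library-size scaling. KAT5 was called higher with overlapping groups (log2 fold change 0.27, edgeR with Benjamini-Hochberg, adjusted p = 0.0422). BRCA1, a repair and checkpoint gene, fell from 82.2 ± 16.9 to 15.4 ± 5.72 CPM (SD, n = 4 each), or -2.40 ± 0.23 as log2 fold change ± SE (adjusted p = 4.58e-06, edgeR with Benjamini-Hochberg). It shares 120 exonic bases with AC060780.1 on the same strand. H2AX, the histone that ATM phosphorylates around breaks, fell from 281 ± 51.2 to 87.3 ± 9.89 CPM, with log2 fold change -1.69. NBN, a subunit of the MRE11 complex that recruits ATM, rose from 78.6 ± 2.72 to 127 ± 14.2 CPM, with log2 fold change 0.70. The other subunits, MRE11 and RAD50, had log2 fold changes of -0.13 and -0.49 and were not called. RAD50 shares bases of its last exon with another annotated gene on the same strand, and its value is uncertain.

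Among 7 relatives of ATM and ATR and their helpers, which include PRKDC, MTOR, SMG1 and TRRAP and the TTT complex that stabilises these proteins, 6 were tested. Of these, 1 was higher and 2 lower, with a median log2 fold change of -0.18, so 3 of 6 were called where 57.9% of all tested genes were. The count was 2 in 9 of 17 alternatives, DESeq2 and library-size scaling among them. PRKDC, the catalytic subunit of DNA-PK, fell from 433 ± 20.1 to 321 ± 23.8 CPM (SD, n = 4 each), with log2 fold change -0.43. TRRAP, a relative without kinase activity, had one of -0.38 (edgeR with Benjamini-Hochberg, adjusted p = 0.0105), and MTOR, the growth kinase, one of 0.28 (adjusted p = 0.0303).

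Targets and partners of the effector kinases were mostly lower. Of 11, 7 were lower, 2 higher and 2 not called, where 28.5% of all tested genes were lower and 29.4% higher. The median log2 fold change was -1.28. This list too was chosen with earlier results of these data known, so its shares only describe the listed genes. CDK2, the S phase kinase, fell from 195 ± 31.3 to 48.6 ± 3.38 CPM (SD, n = 4 each), or -2.001 ± 0.104 as log2 fold change ± SE (adjusted p = 1.83e-13, edgeR with Benjamini-Hochberg). PKMYT1, the kinase that acts beside WEE1 on CDK1, fell from 45.8 ± 8.47 to 14.3 ± 1.59 CPM, with log2 fold change -1.67. PPM1D, a phosphatase that switches the checkpoint off, rose from 88.5 ± 8.68 to 167 ± 8.17 CPM, with log2 fold change 0.92. The CDC25 phosphatases, which the effectors restrain, had log2 fold changes of -1.58 for CDC25A, -1.46 for CDC25C and -0.12 for CDC25B, the last not called.

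Genes known for expression in G2 and mitosis moved with the groups as well. Of 10, the 9 tested were all lower, where 28.5% of all tested genes were, with a median log2 fold change of -1.28, and NUSAP1 had too few counts. Their largest falls were those of AURKB (-1.86) and KIF11 (-1.56). As with the other lists, earlier results of these data were known at its choice, so its share is description only. The summed level of the list was 1755 CPM in DMSO replicate 1, 3176 in replicate 2, 2700 in replicate 3 and 1982 in replicate 4, and 897 to 1187 CPM in the dTAGV1 libraries. DMSO replicate 1, the lowest of its group here, was also the lowest DMSO library in ATRIP, TOPBP1, MDC1, TP53BP1 and WEE1. It was the highest DMSO library in ATM and lay between the others in ATR, RAD9A, CHEK1 and CHEK2. The part of cell cycle position in the changes of CHEK1, ATR, ATRIP and CHEK2 was not tested. Without DMSO replicate 1, the log2 fold change was -0.67 for CHEK1, -0.33 for ATR, -0.89 for ATRIP and -0.40 for CHEK2. That library had the DMSO sum nearest the dTAGV1 libraries, so leaving it out does not test cell cycle position.

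**Figure D4:**
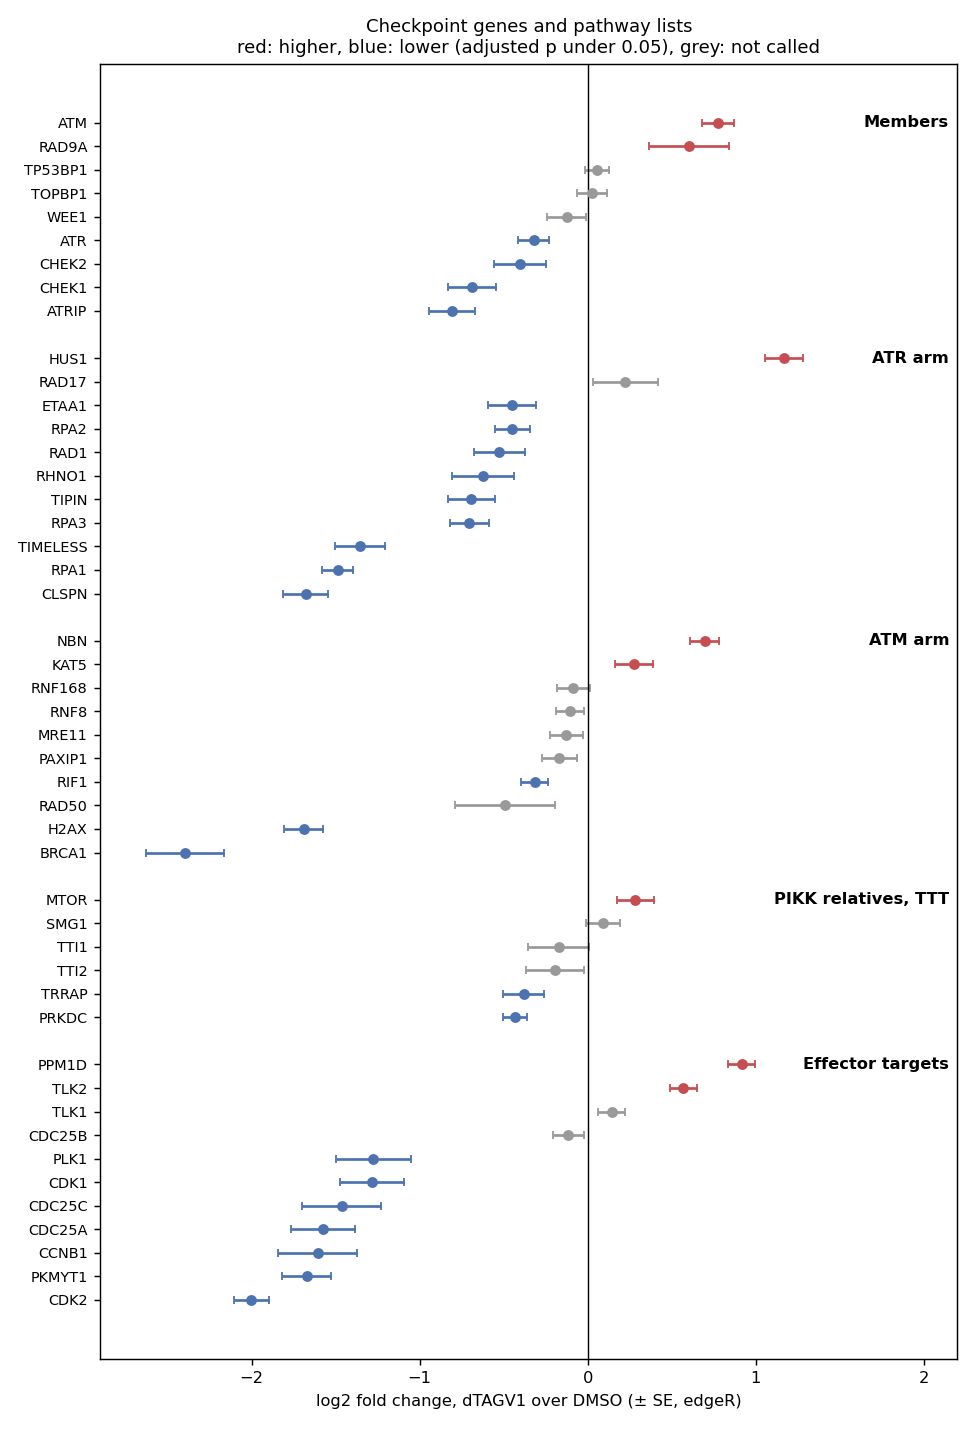
Log2 fold change of dTAGV1 over DMSO with its standard error (edgeR) for the tested checkpoint genes and for the lists of the ATR side, the ATM side, kinase relatives with the TTT complex, and effector targets. Red marks genes called higher, blue those called lower and grey those not called; the widest differences, -2.40 for BRCA1 and -2.001 for CDK2, are outside the 10 genes.

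Reads on the opposite strand were sparse for 8 of the 10 genes, with at most 59 over all libraries together. TP53BP1 and RAD9A had enough to test. Opposite-strand reads of TP53BP1 numbered 70, 75, 61 and 95 in the DMSO libraries (replicates 1 to 4) and 48, 27, 26 and 38 in the dTAGV1 libraries (replicates 1 to 4). They fell, with a log2 fold change of -1.14 and a standard error of 0.19 (edgeR and Benjamini-Hochberg, adjusted p = 9.40e-06), while 48.4% of 3324 genes tested on the opposite strand were called. TUBGCP4, a gamma-tubulin complex gene on the other strand, shares 3732 exonic bases with TP53BP1. Its sense count fell with a log2 fold change of -0.61 (edgeR with Benjamini-Hochberg, adjusted p = 0.0146). A read of that strand in the shared bases counts as opposite-strand for TP53BP1 and as sense for TUBGCP4. These falls are therefore not separate results. The sense reads of TP53BP1 were not called. Counted irrespective of strand, TP53BP1 had only 291 to 360 reads per library and RAD9A only 12 to 25.

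RAD9A had more opposite-strand than sense reads in every library, from 81 to 167 against 15 to 42. Its last exon shares 228 bases with PPP1CA, a protein phosphatase catalytic subunit gene on the other strand. PPP1CA had 91 to 198 sense reads. A read of that strand in the shared stretch counts as opposite-strand for RAD9A and as sense for PPP1CA, so these counts are not separate sets of reads. The opposite-strand counts of RAD9A were not called (log2 fold change -0.41, edgeR with Benjamini-Hochberg, adjusted p = 0.134), and neither was PPP1CA (-0.20, adjusted p = 0.579).

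**Figure D5:**
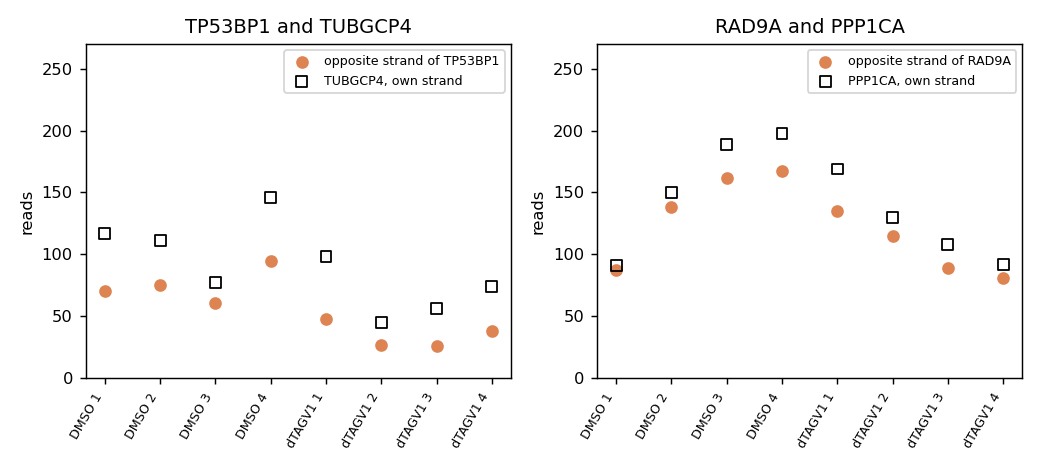
Reads per library on the opposite strand of TP53BP1 and RAD9A (filled circles) and reads of the overlapping genes TUBGCP4 and PPP1CA on their own strand (open squares). Reads in the shared stretches can appear in both. The opposite-strand reads of TP53BP1 run from 61 to 95 with DMSO and from 26 to 48 with dTAGV1.

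Position and length were described without a test. ATM, RAD9A, CHEK1 and WEE1 lie on chromosome 11, and ATR, ATRIP and TOPBP1 on chromosome 3, so chromosome 11 held genes of the set that were higher, lower and not called. ATM and ATR have similar spans, 147 and 130 kb, at percentiles 88.3 and 85.9 of 10645 tested protein-coding genes. Across those genes, span and log2 fold change had a Spearman's rho of 0.146, and genes are not independent replicates. The median log2 fold change was -0.12 for genes under 10 kb and 0.15 for those over 100 kb.

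CFIm binds the motif UGUA, read as TGTA in DNA, upstream of poly(A) sites. In the last 100 bases of the longest annotated coding transcript, CHEK1, CHEK2 and WEE1 had 2 matches each, ATM, ATR, ATRIP and TP53BP1 had 1 each, and TOPBP1 and RAD9A had none. At least 1 match was present in 7 of these 9 genes and in 56.5% of 10640 tested genes. The part of this motif in the changes was not tested. Which poly(A) sites the cells used was not measured here.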

How the data were processed

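Total RNA was extracted with Trizol and sequenced from transcript 3′ ends with the Lexogen QuantSeq FWD V2 kit, per the labels' protocols. The submitters' processing notes name FastQC, fastp, STAR, HTSeq and DESeq2 and the build GRCh38, with no versions or roles. The annotation is not given, and neither is the handling of molecular identifiers, in the sources used here. The deposited values are whole-number counts of reads per gene in the layout of STAR, and each table has 3 columns, without regard to strand, for the sense strand and for the antisense strand. Sense counts served here, since the kit reads the sense strand, and sense counts were 8.28 to 8.48 times the opposite-strand counts. The 4 totals of reads given to no gene held 56.7% to 62.8% of reads and stayed out of library sizes and tests. Counts were not divided by length, since each transcript gives a read near its end, and levels of different genes were not ranked.

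Groups follow the treatment label. Genes were filtered with filterByExpr, scaled with TMM and tested with the robust quasi-likelihood test of edgeR 4.0.16 in R 4.3.3, with Benjamini-Hochberg adjustment over all 12618 tested genes and a threshold of 0.05. The standard error is the absolute log2 fold change divided by the square root of F. CPM is counts in 1000000 after TMM scaling. Pair ratios used counts + 0.5 and 2-sided exact permutation tests. Alternatives were DESeq2 1.42.0, limma-voom (limma 3.58.1), RLE and library-size scaling, other filters, non-robust dispersions, a replicate block, counts irrespective of strand and leaving out each library.

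All 10 members are named; from each pathway list, the called gene with the largest rise and the 2 with the largest falls are named, and further list genes were picked with their values in view. The members and lists were chosen with earlier results of these data known. All 73 listed genes matched 1 identifier each. Coordinates and overlaps are those of GENCODE 29 on GRCh38, not stated to be the authors' annotation. Replicate pairs differed by more than sampling noise (chi-square per degree of freedom 1.89 to 5.62). In simulated counts with the mean levels and library sizes of this comparison, 200 of 12618 genes were changed. There edgeR recovered 92.9% of genes with a simulated log2 change of at least 1 and 69.5% of those with 0.5, with 12 false calls. In the data a far larger share, 57.9% of tested genes, was called, so these rates may not hold for the data.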

Additional observations from a re-analysis of the deposited data

Results flagged for a closer look

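The ratio of MDC1 to TP53BP1 had a library far from the others of its group. In dTAGV1 replicate 1 the log2 ratio was -10.0, against -7.24, -6.87 and -7.18 in replicates 2 to 4, and the gap took a share of 0.882 of the range of the group. MDC1 had 0 counts in that library, so the value is set by the 0.5 added to counts. About 1 in 20 such groups is marked by chance.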

How the results depend on the processing

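Of 150 values of the 9 tested genes under other settings, 132 kept their direction and their side of the threshold, 12 lost the call and 6 changed sign without a call. The losses were RAD9A (7) and CHEK2 (5), and the sign changes TOPBP1 (5) and TP53BP1 (1). ATM ranged from 0.70 to 0.81, ATR from -0.40 to -0.30, ATRIP from -0.89 to -0.77 and CHEK1 from -0.83 to -0.59, and all kept their calls where tested. Requiring a mean of at least 100 counts left 4118 called genes in all, 3 checkpoint genes and 5 of the ATR list, since fewer genes were tested. With counts irrespective of strand, 4 pair ratios passed at an adjusted p of 0.0429: ATR to ATM at -1.09, ATR to ATRIP at 0.46, TOPBP1 to RAD9A at -0.86 and WEE1 to CHEK1 at 0.58. The exact p of TOPBP1 to RAD9A reached the smallest value there, which lowered the adjusted p of all 4. RAD9A had only 12 to 25 reads per library in that setting, against 15 to 42 sense reads. With 1 library left out, there were 4 to 6 called checkpoint genes, and 1 to 2 called on the opposite strand, where RAD9A was called without DMSO replicate 1 (log2 fold change -0.59). Over the same fits ATR to ATM ran from -1.18 to -1.04.

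The labels number replicates 1 to 4 in both groups with no word on what the numbers share. Deviations from group means correlated at 0.131, -0.0176, 0.0232 and 0.0340 for numbers 1 to 4, so the libraries were not taken as pairs. A replicate block called 7433 genes and the same number of checkpoint genes, 6, with 2 higher and 4 lower. Counts of 15 to 42 for RAD9A and 0 to 9 for MDC1 limit their precision.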
